A study of Rattus norvegicus with 2 samples.

Results

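The genes described here encode the fibroblast, platelet-derived, epidermal and hepatocyte growth factors (FGF, PDGF, EGF and HGF), their receptors and the Sprouty and Spred inhibitors, as measured in uncultured rat lung cells against cultured rat cells. Members were all probes whose gene symbol in the platform annotation begins with Fgf, Pdgf, Erbb, Spry or Spred, or with Nrg and a digit, or equals Egf, Egfr, Areg, Ereg, Btc, Hbegf, Tgfa, Hgf or Met. The rule found 77 probes for 61 genes, out of 20417 named probes for 15611 genes, and 57 of the 61 are genes of these families. Of the other 4, Fgfr1op2, Spryd3 and Spryd7 match in letters only and Fgfr1-ps1 is listed as a pseudogene of Fgfr1. Probes of a gene were averaged; 49 members had 1 probe and 12 had several. Fgf18 and Nrg4 were not analysed here.

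RNA of untreated lung cells, taken without culture, was labelled with Cy3 on 2 Agilent arrays, 1 for each of 2 samples. The Cy5 channel of each array held 1 control RNA, mix1, a pool of cultured rat cells: bone marrow cells (BMC), kept in αDMEM, and primary fibroblasts of the ear (PEF), kept in DMEM, with FBS in each medium. The labels give no strain, age or sex and no mixing ratio, and do not say whether the lung samples came from separate animals, so p-values measure only the spread between these arrays, which may be technical. Each value is a deposited log2 ratio read as lung over mix1, so 1 stands for 2-fold higher in lung. That direction is likely rather than stated: the series text words the data as the difference of lung from mix1, and 6 lung epithelial genes (Sftpc, Sftpa1, Sftpb, Sftpd, Scgb1a1 and Ager) had ratios from 3.94 to 7.02. With the sign turned, every direction below would be the opposite.

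Except for the intracellular FGFs, each of these growth factors is a secreted or cell-surface ligand that pairs receptor tyrosine kinases. The receptors then switch on the RAS and MAP kinase cascade and phosphoinositide 3-kinase. In lung the ligands often come from one tissue layer and the receptors from another: Fgf7, Fgf10 and Hgf are made mainly by mesenchyme and act on epithelium, Fgf9 comes from epithelium and mesothelium, and PDGF made by epithelium and endothelium acts on fibroblasts, smooth muscle and pericytes. Sprouty and Spred proteins sit inside the cell and dampen the cascade.

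The members were spread widely around the middle of all genes and leaned to the lower side at larger sizes. In limma's moderated test against 0, 16 of 61 members (26.2%) were higher in lung and 32 (52.5%) lower at a Benjamini-Hochberg adjusted p under 0.05. Of all 15611 genes, 32.9% were called higher and 49.7% lower by the same rule, so these shares lie near the background. At least 2-fold in both arrays, 7 members (11.5%) were higher and 20 (32.8%) lower, against 16.5% and 15.8% of all genes. Tested against a 2-fold change instead of 0 (limma's treat), 4 members passed as higher and 15 as lower, beside 13.7% and 12.0% of all genes. The median member lay at -0.24 and the median gene at -0.22. Subtracting each array's median probe raised every mean ratio by 0.19. Then 18 members were higher and 24 lower, against 38.5% and 38.0% of all genes. By the 2-fold rule in both arrays, 9 were then higher and 16 lower, a count not made for all genes in that setting. The members that lost their call had deposited means from -0.42 (Fgf8) to -0.18 (Erbb2), and Fgf1 (0.15) and Fgf22 (0.12) gained one. The median SD of a member between the arrays was 0.09. In bulk RNA, fewer cells of a type and less RNA per cell cannot be told apart.

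**Figure D1:**
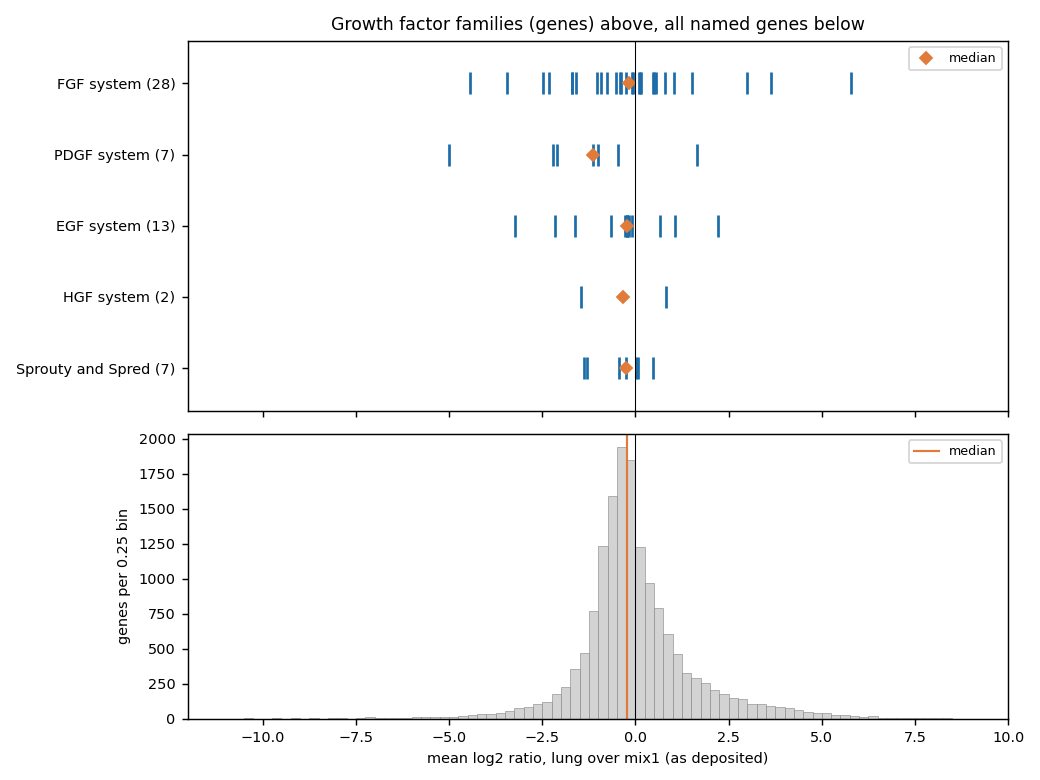
Mean log2 ratio of lung over mix1 for the genes of each family (upper panel, 1 tick a gene, diamond at the median) and the number of named genes per bin of 0.25 (lower panel, line at the median). The FGF system runs from -4.43 to 5.78 around a median of -0.17, and the PDGF system has the lowest family median among those with more than 2 genes, at -1.14, while all genes have a median of -0.22.

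The 14 paracrine FGF ligands are secreted and act on neighbouring cells with heparan sulphate as a cofactor. In both arrays, 2 of them were at least 2-fold higher in lung and 4 at least 2-fold lower, beside 16.5% and 15.8% of all genes. The other 8 had means from -0.76 to 0.15. Fgf17, a ligand of the Fgf8 subfamily, had log2 ratios of 3.76 in array 1 and 3.49 in array 2, or 12.4-fold higher in lung (3.63 ± 0.19, SD, n = 2; limma adjusted p 0.00159). Fgf9, known in lung development as a signal from epithelium and mesothelium, had 3.17 and 2.83 (2.999 ± 0.24, adjusted p 0.00233). Each lay far above 0 in both arrays, and they ranked 498th and 753rd from the top of the 15611 genes. Fgf7, the keratinocyte growth factor that stromal cells send to epithelium, had -4.41 and -4.45, or 21.5-fold lower in lung (-4.43 ± 0.03, adjusted p 0.00117), which placed it 114th from the bottom. Fgf16, a close relative of Fgf9, had -3.54 and -3.38 (-3.46 ± 0.11). Fgf2, basic FGF, averaged -2.48 ± 0.16 over 2 probes that differed widely, one at -4.20 and -4.09 and the other at -0.997 and -0.65. Fgf10, required in the embryo for lung budding, had -2.44 and -2.22, or 5.02-fold lower in lung. These 4 were the ligands of this group at least 2-fold lower in both arrays. Of the other 8, Fgf6 (-0.76 ± 0.02), Fgf8 (-0.42 ± 0.09) and Fgf20 (-0.24 ± 0.08) were called lower, the last 2 no longer so with array medians subtracted. Fgf1, Fgf3, Fgf4, Fgf5 and Fgf22 did not pass, with means from -0.37 to 0.15; with array medians subtracted Fgf1 (0.34) and Fgf22 (0.31) were called higher.

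The promoter windows below belong to members among the 3 highest and 3 lowest for which RefSeq's promoter table (GRCr8) had an entry, and show the DNA at the starts of genes that lay at opposite ends of the range; Fgf17 and Pdgfrl were the other 2. Each window runs 5′ to 3′ from 250 bases before to 50 after the start, all on the + strand: Fgfbp1 at chr14:71318633-71318932, Fgf9 at chr15:36327108-36327407, Fgf7 at chr3:133735377-133735676 and Fgf16 at chrX:74882745-74883044. Capitals mark matches to TATAAA on either strand.
Fgfbp1: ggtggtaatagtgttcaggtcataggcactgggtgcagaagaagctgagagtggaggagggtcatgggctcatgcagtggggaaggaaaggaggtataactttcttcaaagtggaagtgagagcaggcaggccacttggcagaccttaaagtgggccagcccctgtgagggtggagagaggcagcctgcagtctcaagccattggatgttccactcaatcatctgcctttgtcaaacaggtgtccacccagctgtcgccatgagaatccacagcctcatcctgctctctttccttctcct
Fgf9: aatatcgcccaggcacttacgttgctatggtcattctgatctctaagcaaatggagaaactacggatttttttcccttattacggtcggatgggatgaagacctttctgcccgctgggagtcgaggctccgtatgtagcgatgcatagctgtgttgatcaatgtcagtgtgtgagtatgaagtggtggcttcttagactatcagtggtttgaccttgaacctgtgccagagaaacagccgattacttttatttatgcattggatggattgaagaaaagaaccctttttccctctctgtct
Fgf7: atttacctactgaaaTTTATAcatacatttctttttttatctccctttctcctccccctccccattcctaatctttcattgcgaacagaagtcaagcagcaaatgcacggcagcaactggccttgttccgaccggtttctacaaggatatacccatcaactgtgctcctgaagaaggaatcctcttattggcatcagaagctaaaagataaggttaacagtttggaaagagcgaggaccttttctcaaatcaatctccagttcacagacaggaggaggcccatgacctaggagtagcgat
Fgf16: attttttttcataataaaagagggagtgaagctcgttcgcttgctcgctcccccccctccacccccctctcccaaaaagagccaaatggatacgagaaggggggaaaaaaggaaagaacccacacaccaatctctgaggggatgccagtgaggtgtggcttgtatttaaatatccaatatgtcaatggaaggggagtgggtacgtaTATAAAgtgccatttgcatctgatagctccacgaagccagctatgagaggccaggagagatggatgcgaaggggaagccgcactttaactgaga
The windows were also searched on both strands for the GC box GGGCGG and the AP-1 letters TGANTCA, and none of the 4 held either. Fgf16 had TATAAA beginning 44 bases before the start. Fgf7 had it on the opposite strand, with the match's farthest base 235 bases before the start, while Fgfbp1 and Fgf9 had none. Among the 46 family genes with a window, TATAAA was found in 13.0%, GGGCGG in 65.2% and TGANTCA in 6.52%. Among 12891 windows of genes named on the arrays the shares were 11.1%, 51.3% and 6.11%. GC content was 43.7% in the Fgf7 window, 44.7% in Fgf9, 48.7% in Fgf16 and 53.7% in Fgfbp1, all below the median of 58.3% over genes named on the arrays. These matches describe letters only.

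The FGF receptors differed in direction, with Fgfr1 lower in lung and the other 3 higher. Fgfr1, the receptor typical of mesenchymal cells, averaged -1.57 and -1.60 (-1.59 ± 0.02, SD, n = 2; adjusted p 0.00130). Its probes lay at -2.19 and -0.99, both lower. Fgfr4 had 1.83 and 1.18 (1.504 ± 0.46, adjusted p 0.0202), the largest ratio of the 4 and the widest spread. Fgfr3 had 0.60 and 0.40 (0.50 ± 0.14, adjusted p 0.0202). Fgfr2, whose splice forms are the epithelial receptor for Fgf7 and Fgf10 and a mesenchymal one, averaged 0.83 and 0.76 (0.80 ± 0.05, adjusted p 0.00294), but its 4 probes ran from -0.44 to 2.68. Of the 3 probes annotated to the same transcript, the highest had 2.70 and 2.67, the next 0.96 and 1.11, and the last -0.15 and -0.01, while the probe of another transcript had -0.17 and -0.71. When the lower of the 2 middle probes stood for the gene, Fgfr2 lay at -0.08, so its direction depends on how probes are joined. Which splice form each probe reads is not given in the files.

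**Figure D2:**
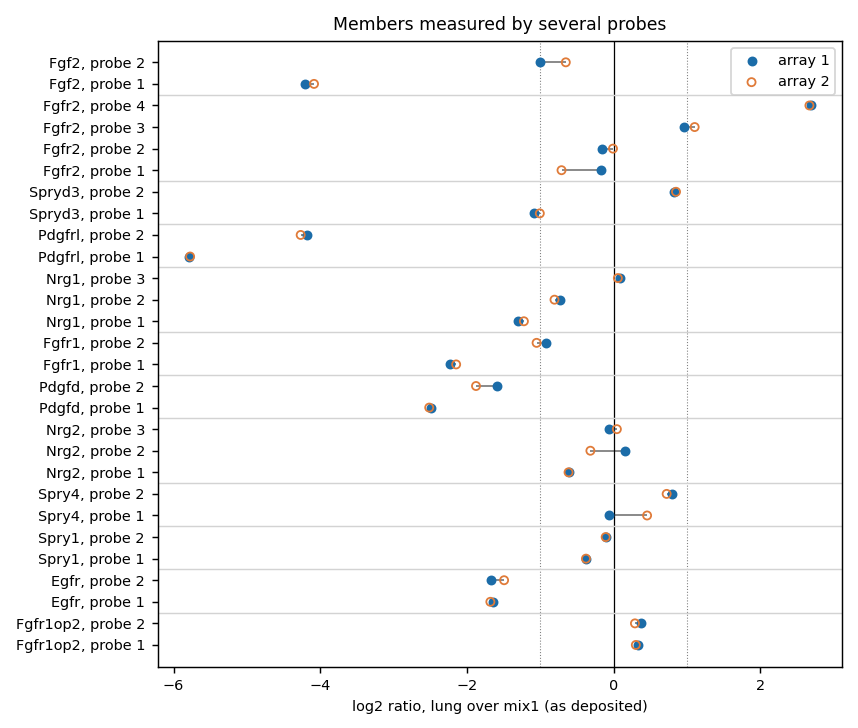
Log2 ratio of lung over mix1 for each probe of the 12 members with several probes (filled, array 1; open, array 2; dotted lines at 2-fold), with genes ordered from the widest to the narrowest range between probes and probes numbered from the lowest. Probes of Fgf2 lay 3.32 apart and those of Fgfr2 3.12 apart, whereas the 2 probes of Egfr differed by 0.08; the signs of probe means differed within Fgfr2, Spryd3 and Nrg1.

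Proteins that carry or trap FGFs included the highest member. Fgfbp1, a secreted carrier that frees FGFs from the matrix and is made by epithelia, had 5.40 and 6.16, or 54.8-fold higher in lung (5.78 ± 0.54, SD, n = 2; adjusted p 0.00276), 66th from the top of all genes. The samples differed more for Fgfbp1 than for most members, and each was above every other member. Fgfbp3, a second carrier, had 1.10 and 0.95 (1.03 ± 0.10, adjusted p 0.00363). Fgfrl1, an FGF receptor-like protein without a kinase domain, was lower at -1.70 and -1.69.

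Among the hormone-like FGFs, which travel in blood and need Klotho proteins to bind receptors, only Fgf23 passed, at -0.88 and -0.98 (-0.93 ± 0.07, adjusted p 0.00292). Fgf19 had 0.21 and -0.41 and Fgf21 had 0.09 and 1.03, and neither passed. The intracellular FGFs are not secreted and bind voltage-gated sodium channels. Fgf13 (-1.54 and -1.85) and Fgf11 (-1.01 and -1.06) were lower in lung, Fgf12 was higher at 0.47 and 0.48, and Fgf14 had -1.07 and 0.05 and did not pass (adjusted p 0.309).

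**Figure D3:**
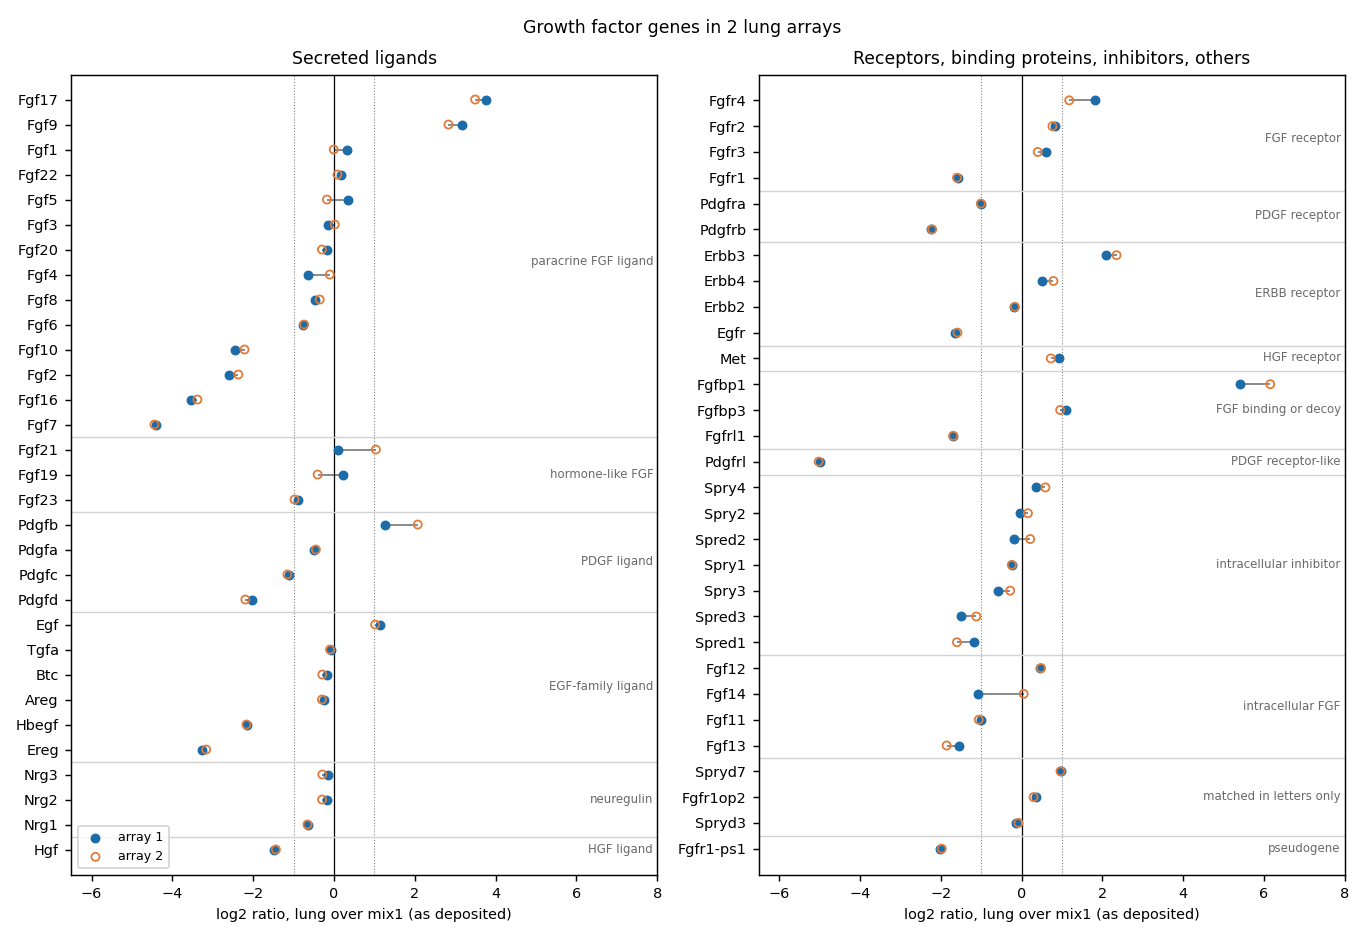
Log2 ratio of lung over mix1 of the 61 members in array 1 (filled) and array 2 (open), grouped by role, with secreted ligands at left and all other members at right; dotted lines mark 2-fold. Fgfbp1, Fgf17, Fgf9 and Erbb3 lie farthest to the right and Pdgfrl, Fgf7, Fgf16 and Ereg farthest to the left, and the 2 arrays lie close together except for members such as Fgf14, Fgf21 and Pdgfb.

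PDGF genes were lower in lung with 1 exception: 6 of 7 were called lower, 5 of them at least 2-fold in both arrays, beside 49.7% and 15.8% of all genes. Of the 5, Pdgfc and Pdgfra lay near the 2-fold limit, with means of -0.95 and -0.82 once array medians were subtracted. In limma's treat against a 2-fold change, 3 of the 7 passed as lower, beside 12.0% of all genes. The family is small and was chosen with its values known, so these counts describe its members. The receptor Pdgfrb, typical of pericytes and fibroblasts, had -2.23 and -2.21 (-2.22 ± 0.01, SD, n = 2; adjusted p 0.00117), or 4.67-fold lower. Pdgfra, the receptor of lung fibroblasts and their precursors, had -1.01 and -1.01 (adjusted p 0.00173). Pdgfrl, a secreted receptor-like protein without a kinase, was the lowest member at -4.99 and -5.02, or 32.1-fold lower and 80th from the bottom of all genes; its probes lay at -5.78 and -4.22. The samples barely differed for any of these 3. Among the ligands, Pdgfd averaged -2.04 and -2.20, Pdgfc had -1.12 and -1.15, and Pdgfa had -0.49 and -0.45. Pdgfb, made by endothelium and carried by platelets, was the exception at 1.25 and 2.07 (1.66 ± 0.58, adjusted p 0.0255). Beside it, all 8 endothelial markers were higher in lung (2.27 to 6.04) and so were the 4 measured platelet markers (Gp9 1.51, Ppbp 1.32, Pf4 1.08 and Clec1b 8.38); their part in the Pdgfb ratio was not tested.

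In the EGF family, ligands were mostly lower or near 0 and the receptors were divided. Ereg (epiregulin) had -3.28 and -3.17, or 9.33-fold lower in lung (-3.22 ± 0.08, SD, n = 2; adjusted p 0.00118). Hbegf, the heparin-binding member, had -2.15 and -2.17 (-2.16 ± 0.01, adjusted p 0.00117). Egf itself was the only called ligand of this family on the higher side, at 1.13 and 1.02 (1.07 ± 0.08, adjusted p 0.00270). Areg (amphiregulin, -0.25 and -0.30) and Btc (betacellulin, -0.18 and -0.29) were called lower, calls that ended with array medians subtracted, and Tgfa had -0.08 and -0.10 and did not pass. Of the neuregulins, ligands of Erbb3 and Erbb4, Nrg1 averaged -0.65 and -0.66 over 3 probes with means of -1.26, -0.77 and 0.08. Nrg2 (-0.24 ± 0.09) and Nrg3 (-0.22 ± 0.09) lay at the median of all genes, and their calls as lower ended with array medians subtracted.

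Egfr was lower in lung at -1.66 and -1.59 (-1.62 ± 0.05, SD, n = 2; adjusted p 0.00143), and its 2 probes agreed within 0.08. Erbb3, a receptor whose own kinase is weak and which signals in pairs with Erbb2, had 2.10 and 2.35, or 4.68-fold higher (2.23 ± 0.18, adjusted p 0.00241). Erbb4 had 0.50 and 0.79 (0.65 ± 0.20, adjusted p 0.0224). Erbb2, which binds no ligand of its own and is the shared partner of the others, had -0.20 and -0.17; it was called lower as deposited (adjusted p 0.0269) and lay at 0.00 with array medians subtracted. The mean ratios of the receptors therefore ran in the order Erbb3, Erbb4, Erbb2, Egfr, from highest to lowest.

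HGF and its receptor lay on opposite sides. Hgf, a stromal factor that drives epithelial growth and movement, had -1.49 and -1.44 (-1.46 ± 0.03, SD, n = 2; adjusted p 0.00143), or 2.76-fold lower in lung. Met, its receptor on epithelium and endothelium, had 0.92 and 0.72, or 1.77-fold higher (0.82 ± 0.14, adjusted p 0.00781). Beside these stromal ligands, which include Fgf7 and Fgf10, all 10 markers of cultured fibroblasts and marrow stroma were lower in lung, from -1.61 for Postn to -7.44 for Prrx1, whereas the 4 measured markers of lung mesenchyme were higher, from 0.16 for Wnt2 to 3.50 for Tcf21. The part of these cells in the ligands' ratios was not tested.

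Of the 7 intracellular inhibitors, 1 was called higher and 3 lower in lung, beside 32.9% and 49.7% of all genes. Of the Sprouty genes, Spry4 was called higher at 0.36 and 0.59 and Spry1 lower at -0.25 and -0.24, while Spry2 (-0.03 and 0.16) and Spry3 (-0.58 and -0.28, adjusted p 0.0507) did not pass. The Spry1 call ended with array medians subtracted, and Spry4 did not pass when its lower probe stood for the gene (0.20). Spred1 had -1.18 and -1.60 (-1.39 ± 0.30, SD, n = 2; adjusted p 0.0105) and Spred3 had -1.50 and -1.12 (-1.31 ± 0.27, adjusted p 0.00981), both at least 2-fold lower in each array as deposited. Spred2 had -0.18 and 0.21.

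Ligands were then set beside receptors chosen from textbook binding, 41 measured pairs of 28 ligands and 10 receptors. The list does not hold every receptor that each ligand can bind, so the counts below hold for these pairs only. Pairs share genes and are not independent, so they are described without a test. In 17 pairs the ligand was called lower and the receptor higher in lung, and in 2 pairs, Pdgfb with Pdgfrb and Egf with Egfr, the ligand was higher and the receptor lower. Both partners were lower in 9 pairs and both higher in 4, and in the remaining 9 the ligand did not pass. These counts depended on the centring: with array medians subtracted, a lower ligand met a higher receptor in 9 pairs, and the reverse held in 3. Both partners were then higher in 8 pairs and lower in 7, and the ligand did not pass in 14. Fgf7 (-4.43) and Fgf10 (-2.33) stood against Fgfr2 at 0.80, and Hgf (-1.46) against Met at 0.82. Nrg1 (-0.65) and Nrg2 (-0.24) stood against Erbb3 at 2.23. The pairs with both partners higher as deposited were Fgf9 with Fgfr3 and with Fgfr2, and Fgf17 with Fgfr3 and with Fgfr4. The pairs with both partners at least 2-fold lower in both arrays as deposited numbered 5: Fgf2 with Fgfr1, Pdgfc with Pdgfra, Pdgfd with Pdgfrb, and Hbegf and Ereg with Egfr. With array medians subtracted, the means of Pdgfc (-0.95) and Pdgfra (-0.82) were under 2-fold. As groups, the 31 secreted ligands had a median of -0.28 with 4 called higher and 19 lower, and the 11 signalling receptors had a median of 0.50 with 6 higher and 5 lower, beside 32.9% of all genes higher and 49.7% lower. With array medians subtracted, 6 ligands were higher and 13 lower, and 6 receptors higher and 4 lower. The difference between these groups was not tested. The pairs of Fgfr2 rest on the mean of its 4 probes. With the lower middle probe standing for the gene, Fgfr2 (-0.08) lost its call, so none of its pairs would then have a higher receptor. Nrg2 (-0.08) lost its call as lower when its middle probe stood for the gene.

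**Figure D4:**
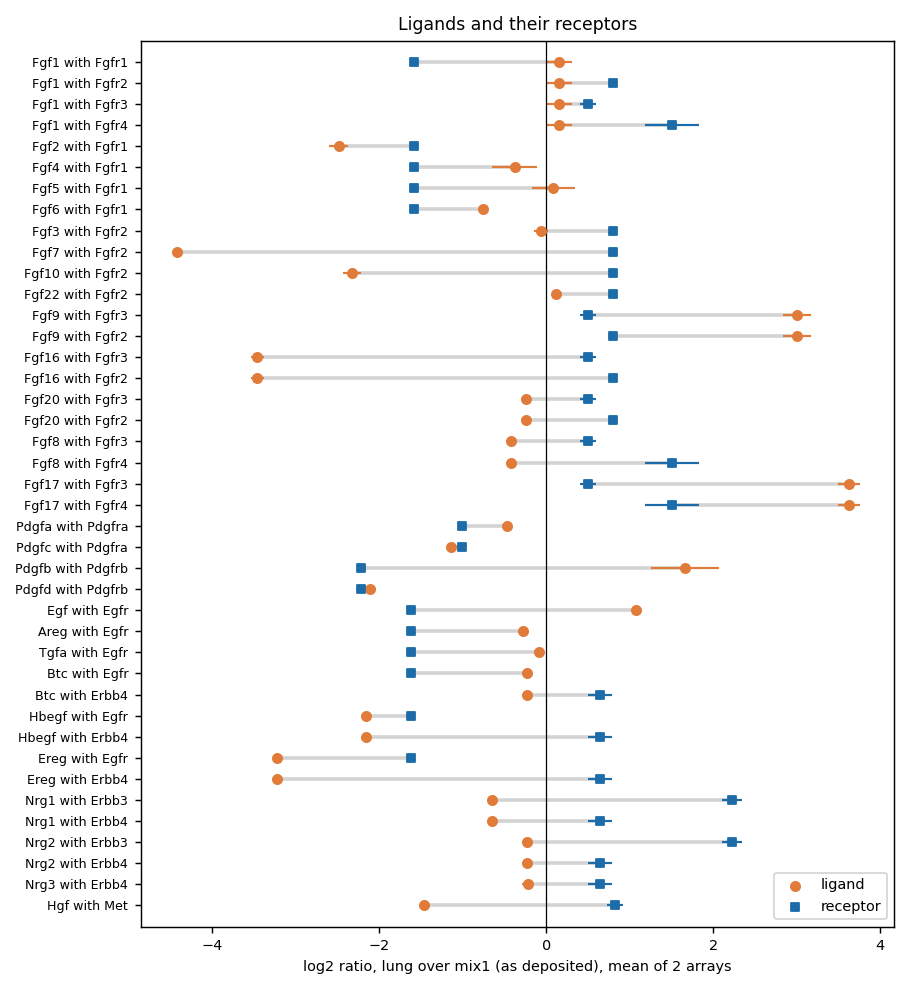
Mean log2 ratio of lung over mix1 of the ligand (circle) and the receptor (square) in each of the 41 pairs, with thin bars reaching the values of the 2 samples. The longest gaps belong to Fgf7 and Fgf16 against Fgfr2, where the ligand is the lower partner, and Pdgfb against Pdgfrb has the ligand at 1.66 and the receptor at -2.22.

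Other genes of the pathway were read from a list of 62, of which 51 were measured: 25 (49.0%) were called higher and 20 (39.2%) lower in lung, beside 32.9% and 49.7% of all genes. By the 2-fold size rule in both arrays, 15 (29.4%) lay above and 7 (13.7%) below, beside the 16.5% and 15.8% of all genes. Of 17 genes acting outside the cell, 13 were called higher and 3 lower, with a median of 1.53. Mst1, which encodes the HGF-like protein, had 5.80 and 5.72 (5.76 ± 0.05, SD, n = 2; adjusted p 0.00117). Spint1 and Spint2, epithelial inhibitors of the proteases that activate HGF, lay at 4.49 ± 0.14 and 4.31 ± 0.08. The membrane proteins Flrt3 and Flrt2, which can bind FGF receptors, lay far apart at 3.82 ± 0.05 and -4.16 ± 0.06. Lrig2 (-0.53 ± 0.02) and Plat (-0.15 ± 0.01) were also called lower, and Plat lay at 0.04 and did not pass with array medians subtracted.

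Inside the cell, the median of 21 measured genes was -0.09, with 8 called higher and 10 called lower, shares near those of all genes. The kinase subunit Pik3cb (2.03 ± 0.05, SD, n = 2), the kinase Braf (1.97 ± 0.42), the exchange factor Sos2 (1.40 ± 0.28) and Pik3r1 (1.36 ± 0.30) were the highest. The adaptor Shc1 averaged -3.43 and -3.37 over 3 probes, of which the middle one lay at -2.21. Nf1 (-0.83 ± 0.19), Hras (-0.67 ± 0.01) and Frs3 (-0.67 ± 0.02) were lower to a smaller degree. Response and feedback genes, whose transcripts follow MAP kinase activity in many cells, were called higher for 4 of 13 and lower for 7 (median -0.44). By that rule their shares were again near those of all genes. By the 2-fold size rule in both arrays, 1 of the 13 lay above and 5 below, beside 16.5% and 15.8% of all genes. The early response genes Fosl1 (-5.88 ± 0.52), Egr1 (-3.58 ± 0.00) and Ier3 (-2.82 ± 0.02) were lowest, followed by Etv4 (-2.09 ± 0.02), an ETS factor induced by FGF. Dusp6, the ERK phosphatase induced by FGF, was higher at 1.08 and 1.06, as were Errfi1, an inhibitor of Egfr (0.88 ± 0.03), Etv1 (0.86 ± 0.03) and Etv5 (0.56 ± 0.02). Etv5 lay at 0.08 and did not pass when its lower probe stood for the gene. Beside these, all 5 proliferation markers were lower in lung, from -3.42 to -1.79, and their part in the response genes was not tested.

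**Figure D5:**
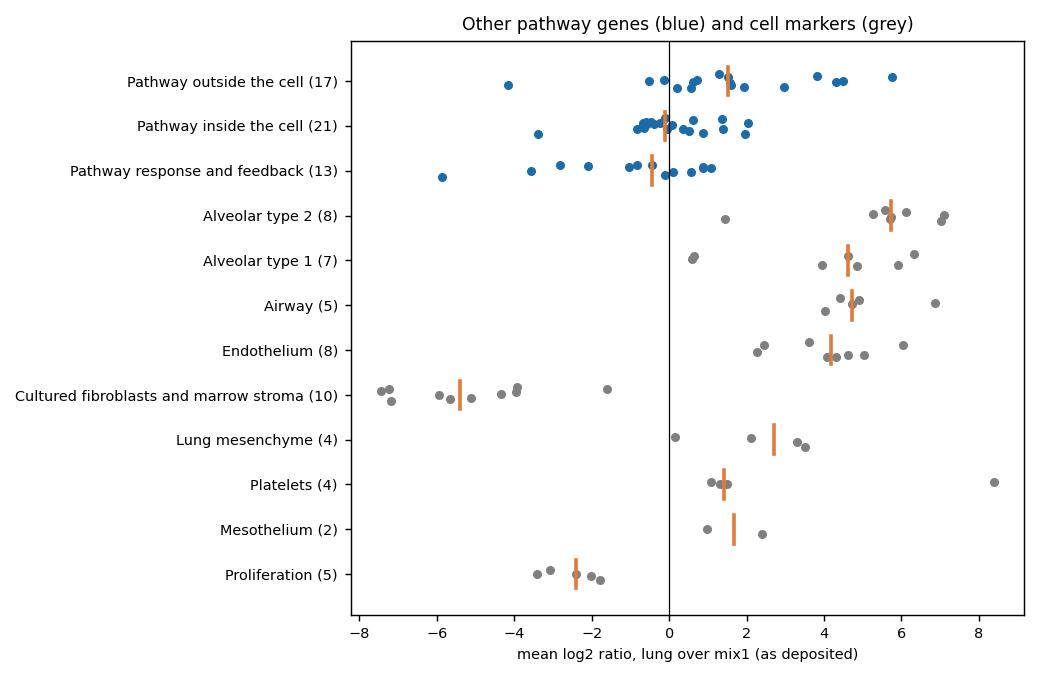
Mean log2 ratio of lung over mix1 for the 51 measured pathway genes in 3 groups (blue) and for marker genes of cell types and proliferation (grey), 1 point a gene, with the list median as a bar. Markers of alveolar, airway and endothelial cells lie to the right of 0 and those of cultured stroma and proliferation to the left, whereas each group of pathway genes lies on both sides.

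The tissue label was borne out by its markers: all 8 alveolar type 2, 7 measured type 1, 5 airway and 8 endothelial genes were higher in lung, with medians of 5.72, 4.62, 4.73 and 4.19. The genes that settled the sign belong to these epithelial lists, so their direction is no separate evidence. Of the 4 members that are not family genes, Spryd7 (0.96 ± 0.00, SD, n = 2) and Fgfr1op2 (0.33 ± 0.04) were called higher, and Spryd3, whose probes lay at -1.05 and 0.84, did not pass. The probe listed for Fgfr1-ps1 had -2.03 and -1.98, close to the lower Fgfr1 probe at -2.19, and the files do not show whether it reads the pseudogene or Fgfr1 itself.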

How the data were processed

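The authors deposited 1 log ratio of the channels per probe and array, read here as log2. Agilent Feature Extraction is named in the submitters' processing notes; the sources used here give neither its version nor the background correction, dye normalization, centring or log base. Values run from -11.74 to 9.09, too wide for base 10 on a scanner. Scanner intensities were not used here, so dim spots could not be marked. No dyes were swapped, so a dye effect and the difference of lung from mix1 cannot be told apart, and mix1 entered as 1 RNA without its own spread.

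Probes were named from the platform annotation, updated through RefSeq accessions (69 of 77 member probes) or symbols (8) of GRCr8; no member's symbol changed. The tests came from limma (version 3.58.1, run in R 4.3.3): an intercept was fitted to each of 15611 genes, eBayes moderated the variances, and p-values were adjusted over all of them by Benjamini-Hochberg (threshold 0.05), with 1 residual and 1.28 prior degrees of freedom. The scripts were tested on simulated data. Every member is named, and up to 4 pathway genes per sublist and direction, by size. The members, lists and tests were chosen with earlier results of these data known. Alternatives were array medians subtracted, quantile scaling, robust eBayes, the median probe, treat, an adjusted p under 0.01, a 1.5-fold size, each array alone and, chosen after seeing the data, the 57 family genes only and pairs with array medians subtracted. The number of arrays limits the precision.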

Additional observations from a re-analysis of the deposited data

How the results depend on the processing

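The counts of members and pathway genes kept within 1.5 times their reported values with array medians subtracted, quantile scaling, robust eBayes and the median probe, and the members' counts also over the 57 family genes only. With treat against a 2-fold change, 4 members were higher and 15 lower, and 9 pathway genes higher and 6 lower. At an adjusted p under 0.01, 10 members were higher and 23 lower. At 1.5-fold in both arrays, 11 members were higher and 23 lower. In either array alone, the count of members at least 2-fold higher was 8, and of those at least 2-fold lower 20 to 21. With array medians subtracted the direction turned for Erbb2 (0.0048) and Plat (0.042), which lost their calls. Of the members, 7 more lost their call without turning and 2 gained one, and Tgfa, Fgf3, Fgf19 and Spryd3, called in neither setting, changed sign. With the lower middle probe Fgfr2 turned (-0.081) and lost its call, 2 other members lost theirs and 2 gained one. Of the gains, Spry3 has 1 probe and gained its call through the changed fit over all genes, and Nrg3 lost its call under robust eBayes. Each value is already a ratio of lung to mix1 within an array, and there is only 1 group, so no further pairing was possible. Because signal over background was not used here, ratios of genes dim in either channel are of unknown reliability.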
